A study of Caenorhabditis elegans with 2 samples.

Results

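Small nucleolar RNA (snoRNA) genes that lie inside a protein-coding gene on the same strand were examined for binding of SNPC-4 in embryos of the nematode Caenorhabditis elegans. They were chosen by position: a nuclear gene of biotype snoRNA in the RefSeq WBcel235 annotation was included where its body fell within the body of a protein-coding gene, the host, transcribed in the same direction. This gave 180 of 346 annotated snoRNA genes, among 46890 nuclear genes of all kinds. They sat in 156 hosts, of which 133 held 1 such gene and 23 held 2 or more, and 3 of the genes lay in 2 overlapping hosts. 141 lay wholly inside an intron and 39 overlapped a host exon. Their annotated lengths ran from 54 to 325 bp, with a median of 128 bp.

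The data were 2 chromatin immunoprecipitation sequencing (ChIP-seq) libraries, biological replicates 1 and 2 of 1 group, made from whole embryos. The embryos were of mixed stages and of both sexes. Strain OP179 carries the allele unc-119(ed3) III and the transgene wgIs179, from which SNPC-4 tagged with eGFP is expressed. The antibody is labelled snpc-4, with no statement of whether it binds the tag or the protein, and what promoter drives the transgene is not stated in them. The labels also name a control experiment, whose library was not analysed here, give a fragment size range of 150 to 350, and mark the extraction protocol as not provided.

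snoRNAs guide chemical changes on other RNAs. Box C/D snoRNAs direct ribose methylation and box H/ACA snoRNAs direct the conversion of uridine to pseudouridine. A snoRNA inside an intron is commonly cut out of the spliced intron of its host, and needs no promoter of its own, while other snoRNA genes are transcribed from their own promoters. SNPC-4 is the C. elegans relative of the largest subunit of SNAPc, the complex that binds the promoter element of small nuclear RNA (snRNA) genes. SNAPc is also known in this animal for the genes of spliced leader RNAs, which are joined to the start of many messenger RNAs. For a hosted snoRNA gene, SNPC-4 binding just before its 5′ end therefore bears on whether the gene carries a promoter of its own within the host.

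The bases before the annotated 5′ end of the strongest bound hosted genes are shown first, for reference in later passages. Each line holds the 100 bases directly upstream of a snoRNA gene, 5′ to 3′ on the gene's strand, from the RefSeq WBcel235 genome (ce11). Capitals mark the best match to a promoter pattern taken from other genes, the snRNA genes and SL2-type spliced leader genes. The pattern is made of 6 letters, AACCCG, 5 free bases and 6 more letters, TGTCGG. In some lines the capitals include letters that differ from it. The pattern was built after the bases and signals of the hosted genes had been seen, so sharing it is a description. The first 6 genes are the 6 strongest of those that could be printed, and the last 2 genes hold a match to the pattern beside a weak region.
ZK994.7, chrV:8500479-8500578, plus strand: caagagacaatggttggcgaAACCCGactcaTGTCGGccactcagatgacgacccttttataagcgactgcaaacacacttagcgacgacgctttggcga
C16D9.11, chrV:8228970-8229069, minus strand: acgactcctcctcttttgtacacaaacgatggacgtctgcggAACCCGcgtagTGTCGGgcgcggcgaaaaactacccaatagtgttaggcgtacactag
smy-2, chrIV:9511467-9511566, minus strand: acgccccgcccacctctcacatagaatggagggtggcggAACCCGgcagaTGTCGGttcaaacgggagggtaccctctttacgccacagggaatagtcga
F01D5.12, chrII:14018442-14018541, minus strand: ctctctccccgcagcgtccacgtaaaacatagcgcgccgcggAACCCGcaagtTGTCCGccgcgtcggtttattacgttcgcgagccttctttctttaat
C08D8.3, chrV:8349008-8349107, plus strand: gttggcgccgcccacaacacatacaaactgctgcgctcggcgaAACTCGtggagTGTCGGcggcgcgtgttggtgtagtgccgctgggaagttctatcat
T06D8.11, chrII:11224082-11224181, plus strand: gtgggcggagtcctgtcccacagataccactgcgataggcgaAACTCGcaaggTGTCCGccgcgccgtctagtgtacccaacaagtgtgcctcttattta
C02C6.13, chrX:15552488-15552587, minus strand: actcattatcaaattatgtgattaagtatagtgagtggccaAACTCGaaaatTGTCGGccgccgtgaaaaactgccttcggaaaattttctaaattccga
Y73B6A.14, chrIV:6664556-6664655, minus strand: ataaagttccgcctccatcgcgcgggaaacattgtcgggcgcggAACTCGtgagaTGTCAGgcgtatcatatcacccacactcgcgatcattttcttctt

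SNPC-4 binding was read from the authors' ranked lists of 30000 candidate regions for each replicate and for both replicates pooled, which hold weak background regions as well as binding sites. Each region has a signal value, given by the authors, and a summit. For every snoRNA gene the region of highest signal with its summit within 200 bp of the gene body was taken. A region was called strong where it was among the 1099 strongest of a list, 1099 being the number of peaks that passed the authors' threshold on the older genome build. In the pooled list this limit fell at a signal of 31.3, on a range of 6.66 to 4055. The pooled list holds the reads of both replicates, so it is no independent repeat of them. Read depth is unknown, so intervals are on counts of genes and cover counting error only.

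A strong region lay at 15 of the 180 hosted snoRNA genes, or 8.33% (95% Wilson interval 5.11 to 13.3%). The same call was made for 2.43% of all nuclear genes and for 2.63% of the 1063 genes annotated simply as ncRNA that lie inside same-strand hosts. The 15 genes had 14 distinct regions, since the neighbours C51F7.3 and C51F7.4 in frm-7 share 1. A weaker candidate region lay at 49 further genes, which brings the genes with any pooled candidate to 64, or 35.6%. That share, which includes the strong genes, is near the 34.1% of all nuclear genes with any candidate. Having a candidate therefore does not by itself set these genes apart. The search covers the gene body and 200 bp around it, and gene lengths were not matched between hosted snoRNA genes and all nuclear genes. No region was found in any of the 3 lists at 100 of the 180 genes.

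The replicates gave much the same strong genes. Among the 1099 strongest regions of replicate 1 there was one at 18 hosted snoRNA genes, against 2.37% of all genes, and in replicate 2 at 16, against 2.4% of all genes. 14 genes were strong in the pooled list and in both replicates. The exception was F38E11.14 in cng-3, a cyclic nucleotide-gated channel gene, whose region ranked 965 in the pooled list, 767 in replicate 1 and 1214 in replicate 2. Weaker regions recurred less: of the 64 genes with any pooled candidate, 35 also had a region in both replicate lists. Over the 38 genes with a region in both replicate lists, Spearman's rho of the signals was 0.867, a description across genes of 2 libraries. The rho leaves out genes found in 1 replicate only, and it was 0.996 over the 15 strong genes.

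**Figure D1:**
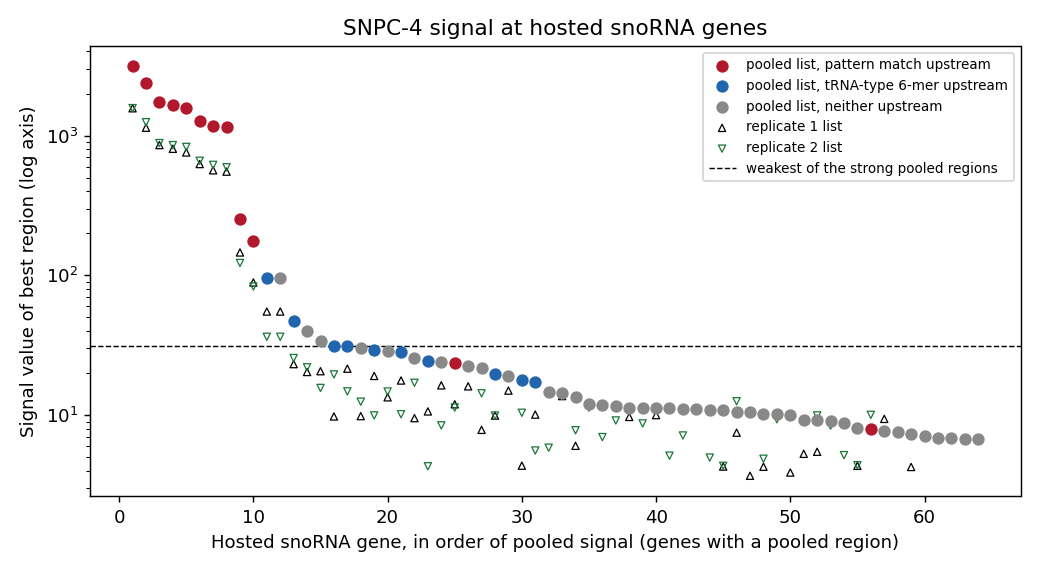
Signal value of the best region (log axis) at the 64 hosted snoRNA genes with a pooled region, in order of pooled signal; filled points are the pooled list, coloured by the letters found upstream, open triangles are the replicates, and the dashed line is the weakest of the strong pooled regions. 8 genes lie above 1000, 2 more lie at 253 and 175, and all 10 have a match to the promoter pattern upstream. The pattern was built after these signals were seen.

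The signals of the 15 strong genes spanned a wide range, and 8 of them exceeded 1000. The snoRNA gene Y37E3.20 (chrI:2085037-2085155, plus strand), in an intron of pcyt-2.1, had a signal of 3125 in the pooled list, 1568 in replicate 1 and 1571 in replicate 2, and its region was the third strongest of all 30000. ZK994.7 lies within an intron of pxn-1, which encodes a peroxidasin, and had 2373 pooled, 1138 in replicate 1 and 1246 in replicate 2. C16D9.11 lies in rol-3, which encodes a receptor tyrosine kinase, and had 1725 pooled, 855 in replicate 1 and 884 in replicate 2. In these 3 genes the replicates differed little next to the distance from the limit of the strong set.

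The gene smy-2, in C33A12.3, had 1651 pooled, 805 in replicate 1 and 854 in replicate 2. Its name places it with the SmY RNAs, nematode small nuclear RNAs linked to trans-splicing. Of the 12 genes named smy- in the annotation, 10 are given as snRNA and 2, smy-2 among them, as snoRNA, so its biotype here sets it apart from most of its relatives.

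F01D5.12, in F01D5.10, had 1587 pooled, 757 in replicate 1 and 829 in replicate 2. C08D8.3, in C08D8.1, had 1273 pooled, 625 in replicate 1 and 660.0 in replicate 2. T06D8.11, in plpr-1, had 1175 pooled, 565 in replicate 1 and 617 in replicate 2. C08D8.3, T06D8.11 and W04D2.7 had close values, after a wider drop from F01D5.12. W04D2.7 lies in inx-11, which encodes an innexin, a gap junction protein, and had 1144 pooled, 552 in replicate 1 and 593 in replicate 2.

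The widest step among the strong genes followed. T19C4.12, in the G protein alpha subunit gene gpa-1, had 253 pooled, 146 in replicate 1 and 123 in replicate 2. F54F11.6, in the chemoreceptor-type gene sre-45, had 175 pooled, 89.0 in replicate 1 and 83.2 in replicate 2. Over these 10 genes, the 10 strongest, the signal of replicate 2 was between 0.841 and 1.095 times that of replicate 1, with a median of 1.06, and it was the higher at 8 of 10. None of the 10 hosts held another snoRNA gene on its strand.

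The remaining 5 strong genes followed by a smaller step. C51F7.3 and C51F7.4, both in frm-7, share a region of 94.97 pooled, 55.1 in replicate 1 and 36.3 in replicate 2. Y43F8C.22, in Y43F8C.7, had 46.9 pooled, 23.2 in replicate 1 and 25.6 in replicate 2. F39B2.14 overlaps an exon of tmem-107, a gene for a membrane protein of cilia, and had 40.0 pooled, 20.3 in replicate 1 and 22.0 in replicate 2. Its summit lay 73 bp from the start of a host transcript, so that the snoRNA gene and the host start cannot be told apart there, which held for 1 of the 15 strong genes. F38E11.14 was the weakest of the strong genes, with 34.1 pooled, 20.6 in replicate 1 and 15.6 in replicate 2.

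Just outside the limit the signals ran on without a gap. T24H7.6 in T24H7.2 had 31.3 pooled, 9.78 in replicate 1 and 19.5 in replicate 2. R12E2.17, in the proteasome subunit gene rpn-8, had 31.0 pooled, 21.5 in replicate 1 and 14.8 in replicate 2. D1046.6 in cfim-2, which encodes a subunit of a cleavage factor for messenger RNA 3′ ends, had 30.1 pooled, 9.84 in replicate 1 and 12.5 in replicate 2. The next 7 genes, at pooled signals from 29.4 down to 23.5, were C05D2.15 in madf-11, C27H6.5 in the synaptic gene unc-41, M106.6 in the condensin gene mix-1, Y71F9AM.7 in the Golgi complex gene cogc-3, K11C4.6 in the spectrin gene unc-70, T08B2.13 in the phenylalanyl-tRNA synthetase gene fars-1, and C02C6.13 in lron-3. As a ratio, the replicates differed most among these 7 for K11C4.6, with 10.6 in replicate 1 and 4.30 in replicate 2. In signal units they differed most for C05D2.15, with 19.1 in replicate 1 and 9.95 in replicate 2.

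By chromosome, the strong genes were 8 of 35 hosted genes on V, of which 2 share a region, 3 of 35 on II, 2 of 28 on IV, 2 of 36 on I, 0 of 37 on III and 0 of 9 on X. The deposited list of thresholded peaks on the ce11 build held peaks on 1 chromosome only, I. On it 5 of 36 hosted snoRNA genes had a thresholded peak, against 4.38% of the genes of that chromosome. These were Y37E3.20 and F39B2.14, which were strong in the pooled list, and R12E2.17, Y71F9AM.7 and T08B2.13, which ranked from 1117 to 1787 there.

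Hosted snoRNA genes had a strong region less often than the snoRNA genes that are not inside a same-strand host. Of those 166 genes 45 had one, or 27.1% (20.9 to 34.3%), and hosted minus other was −18.8 percentage points (two-sided Fisher's exact test, p = 7.83e-06 adjusted over the 4 comparisons between classes). The difference also held against the 33 of these genes that lie inside a protein-coding gene on the opposite strand, where 13 had a strong region, or 39.4% (24.7 to 56.3%; exact test, adjusted p = 3.09e-05). snRNA genes inside same-strand hosts, which lie in the same kind of place, had a strong region at 26 of 37, or 70.3% (54.2 to 82.5%; exact test, adjusted p = 3.06e-14). In these 3 comparisons genes, not animals, were the units counted, and neighbouring genes can share a region. Counting each host or cluster of genes once left all 3 past the threshold. On the thresholded ce11 list, which covers 1 chromosome, none of the 3 passed (exact tests, adjusted p = 0.503, 0.593 and 0.5), and the first difference was −9.80 points.

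**Figure D2:**
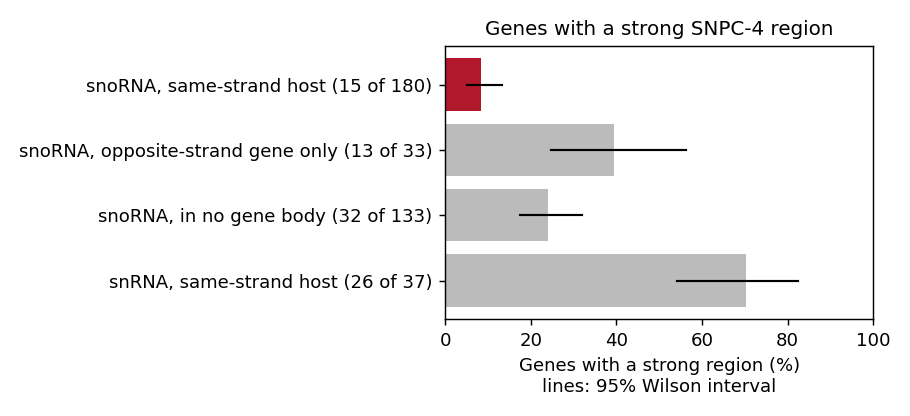
Share of genes with a strong region within 200 bp in each class, in percent, with 95% Wilson intervals as lines. The hosted snoRNA genes, at 8.33%, lie below the snoRNA genes inside opposite-strand genes only, those in no gene body (24.1%) and the hosted snRNA genes.

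The class of the snoRNA could be read from the letters of few genes. By TGATGA near the start and CTGA near the end, 6 hosted genes were box C/D-like, and by ACA a few bases before the end, 55 were box H/ACA-like. 119 stayed unclassed, so the rule covers a minority. A strong region lay at 1 of the 6 C/D-like genes (C51F7.3) and at 1 of the 55 H/ACA-like genes (Y43F8C.22), a difference that did not pass (exact test, adjusted p = 0.189). With replicate 1 alone the counts were 2 of 6 and 2 of 55, and the adjusted p was 0.0448, so this call rests on which library is read. In a later look, the box D letters CTGA stood in the last 20 bases of 8 of the 10 strongest genes, of 1 of the other 5 strong genes, and of 32 of the 165 remaining hosted genes.

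The hosts known in animals for carrying snoRNAs, ribosomal protein and translation factor genes, held 28 of the 180 genes. None of the 28 had a strong region (0%, interval up to 12.1%), against 15 of the other 152 (9.87%, 6.07 to 15.6%), a difference that was not tested. Any pooled candidate lay at 5 of the 28 (17.9%) and at 59 of the 152 (38.8%). Over all nuclear genes the strong share was 2.43% and the share with any candidate 34.1%. The count of 0 among 28 therefore does not by itself set these hosts apart. The host with the most snoRNA genes, nol-56, which itself encodes a core protein of box C/D snoRNA particles, held 4, and none of the 4 had a region in any list. rpl-6, a ribosomal protein gene, held 3: R151.11 had a pooled region of 7.30, R151.13 one of 6.52 in replicate 1 alone, and R151.12 none. The 3 genes in the topoisomerase gene top-2 had none.

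The room inside the intron was measured as the distance from the snoRNA 5′ end to the next host exon upstream. Among the 13 strong genes wholly inside an intron it ran from 108 to 1111 bp with a median of 231 bp. Among the other 128 it ran from 6 to 9381 bp with a median of 102.5 bp. The medians differed by 128.5 bp, which did not pass a two-sided permutation test (adjusted p = 0.184 over 2 distances). The downstream distance, with medians of 83 and 72.5 bp, did not pass the same permutation test either (adjusted p = 0.765). Of the 63 intronic genes with under 100 bp upstream none had a strong region, but that limit was placed below the smallest strong value after the values were seen, so the count is a description and shows no difference. All 26 intronic genes in ribosomal protein and translation factor hosts were among those with little room, at 6 to 72 bp and a median of 29 bp.

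**Figure D3:**
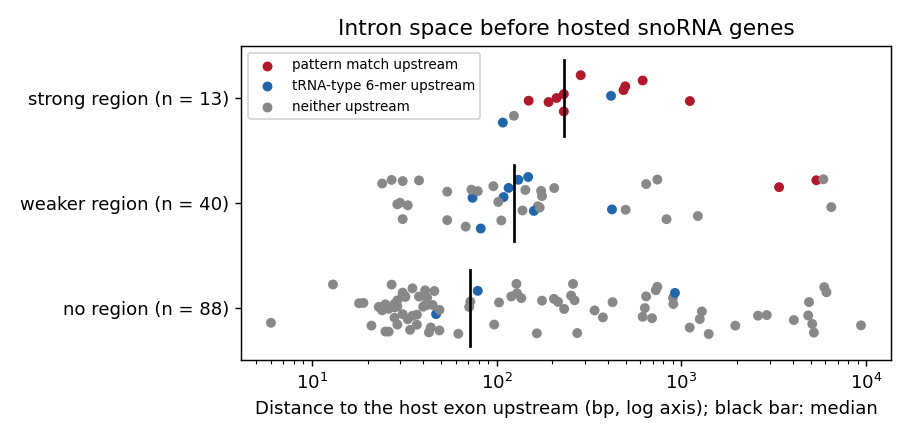
Distance from the snoRNA 5′ end to the host exon upstream (bp, log axis) for the 141 hosted genes wholly inside an intron, split by whether a strong, a weaker or no pooled region lay within 200 bp; points are genes coloured by the letters upstream and black bars are medians. The 13 genes with a strong region lie at 108 to 1111 bp, and the 88 genes with no region at 6 to 9381 bp. The difference of medians between the strong and all other intronic genes did not pass (permutation test, adjusted p = 0.184).

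The summits of the strong regions lay just upstream of the snoRNA genes. Counting each region once, 13 of 14 strong summits were upstream of the annotated 5′ end, with a median of 54 bp over the 14. The exception was counted for C51F7.4, whose body holds the summit 38 bp past its 5′ end, and the same summit lies 71 bp upstream of its neighbour C51F7.3. Weaker candidates were upstream at 29 of 49, with a median position 24 bp upstream. Counted as distance upstream, their summits ran from 187 to −340 bp, a negative value being downstream of the 5′ end. At the other snoRNA genes 42 of 45 strong summits were upstream, with a median of 46 bp.

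At the 10 strongest genes the summit lay 36 to 69 bp upstream in the pooled list, 36 to 69 bp in replicate 1 and 32 to 59 bp in replicate 2. These summits were 308 to 9384 bp from the nearest start of a host transcript, with a median of 2331 bp. The farthest was C16D9.11 in rol-3 and the nearest was smy-2 in C33A12.3. Of the 15 strong genes, 7 had no other annotated gene but the host within 200 bp of the summit, and 6 had a gene annotated as ncRNA there, such as F01D5.14 beside F01D5.12.

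**Figure D4:**
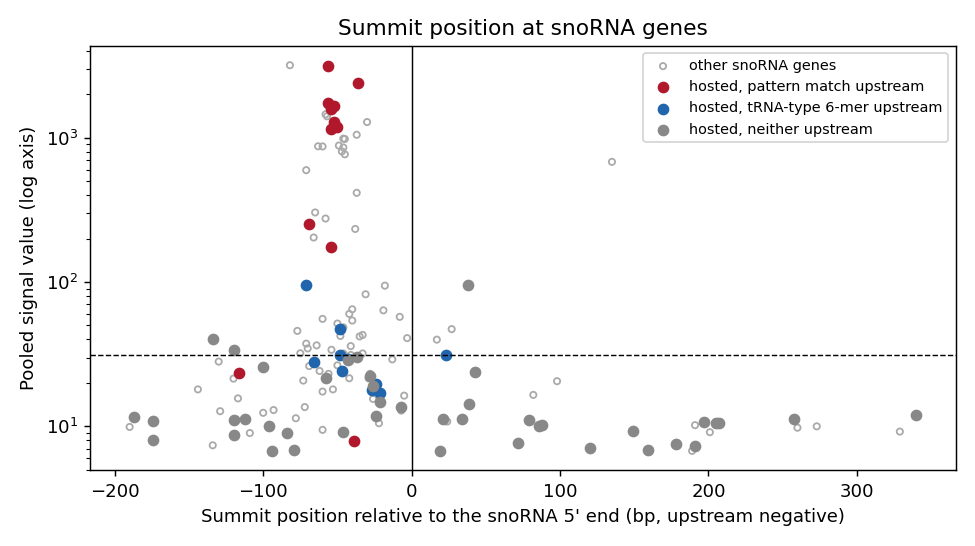
Pooled signal (log axis) against summit position relative to the snoRNA 5′ end (bp, upstream negative), for hosted genes coloured by the letters upstream and for other snoRNA genes as open circles; the dashed line is the weakest strong region. The 10 strongest hosted genes sit together at 36 to 69 bp upstream, among the strong other snoRNA genes, while the weaker hosted regions scatter on both sides.

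The promoter letters were taken from genes that are not hosted snoRNAs. Among 117 snRNA and SL2-type spliced leader genes, the 6 letters AACCCG stood 100 to 30 bases before the 5′ end, on the gene strand, at 43 genes (36.8%), the largest share for 6 letters held there by under 5% of all nuclear genes. Of all nuclear genes 0.736% held them. AACCCG was in that window at 8 of the 15 strong hosted snoRNA genes and at 0 of the other 165. On either strand the counts were 8 of 15 and 2 of 165, with 1.27% of all nuclear genes.

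A longer pattern was then built, after the upstream bases and signals of the hosted genes had been seen, so its counts are a description. A second run of letters, TGTCGG, stood in the same window at 42 of the 117 genes and at 0.883% of all nuclear genes. Where both stood in full they were always 5 bases apart, at 13 genes. Other smy- genes are among those 117, so for smy-2 the letters come in part from its own relatives. Each hosted gene was scored by the letters matched of the 12 at that spacing on the gene strand, and 10 or more was called a match. Of the 117 genes themselves 63 (53.8%) matched. Among hosted snRNA genes with no match, 5 of 13 still had a strong region. A gene without a match therefore cannot be said to lack such a promoter.

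12 of the 180 hosted snoRNA genes had a match, against 0.395% of all nuclear genes, and on the opposite strand 0 of 180 had one, against 0.134%. The other 168 matched 5 to 8 letters, so no gene stood at 9. The 12 matches were the 10 strongest genes and 2 with weak regions, C02C6.13 and Y73B6A.14. Because the pattern was built with these signals in view, this overlap supports nothing by itself. Y37E3.20, ZK994.7, C16D9.11, smy-2, W04D2.7 and T19C4.12 matched all 12 letters, F01D5.12, C08D8.3 and F54F11.6 matched 11, and T06D8.11 matched 10. The 4 strongest all matched 12 letters, while T19C4.12 matched 12 with a pooled signal of 253 and T06D8.11 matched 10 with 1175. The centre of the pattern stood 49 to 72 bp before the 5′ end of the 10 strongest genes, 6 of which have their upstream bases printed above, with a median of 50 bp, and the summit lay 0 to 36 bp from it, with a median of 4 bp. The 36 bp belonged to ZK994.7, whose pattern starts 80 bp upstream where the others start at 57 to 66 bp.

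**Figure D5:**
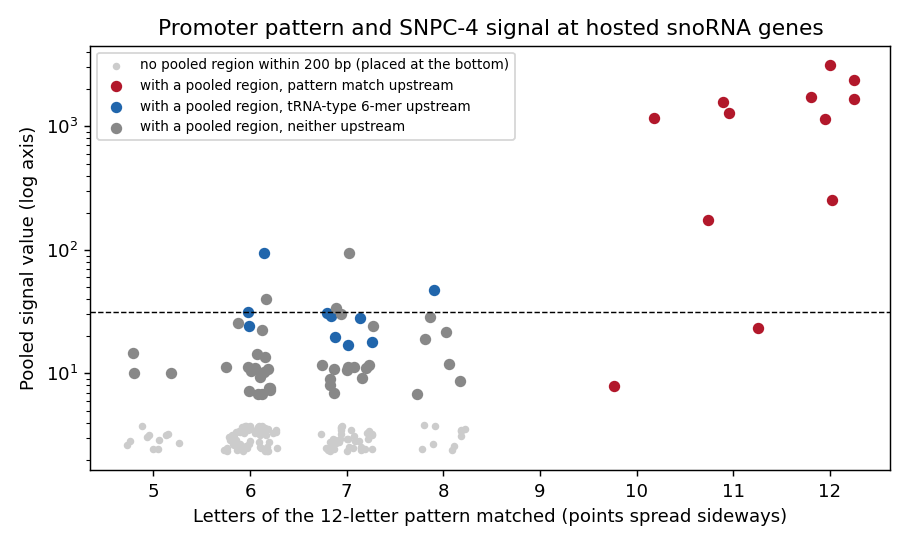
Pooled signal (log axis) against the letters of the 12-letter pattern matched upstream of each of the 180 hosted snoRNA genes; points are spread sideways, and genes with no pooled region are placed along the bottom. The 12 genes with 10 or more letters are set off from the 168 with 5 to 8, and 10 of the 12 lie above 175.

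The weak matches show that the letters and a strong region did not always go together. C02C6.13 in lron-3, a leucine-rich repeat gene, matched 11 letters and had a signal of 23.5 pooled, 11.95 in replicate 1 and 11.3 in replicate 2. Its pooled summit lay 116 bp upstream, while its pattern is centred 51 bp upstream. Y73B6A.14 in Y73B6A.1 matched 10 letters and had 7.94 pooled, no region in replicate 1 and 10.04 in replicate 2. Both were below the lowest of the 10 strongest genes, F54F11.6.

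Among the other snoRNA genes 27 of 166 had a match, and 20 of the 27 had a strong region. Without the genes that matched, a strong region remained at 5 of 168 hosted genes (2.98%, 1.28 to 6.78%) and at 25 of 139 other snoRNA genes (18.0%, 12.5 to 25.2%). The genes left out were picked by a pattern built with the hosted signals in view, so these shares are a description. An exact test of them was run but carries the same choice, so no p-value is given. The hosted share was near the 2.43% of all nuclear genes.

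A second kind of upstream sequence was looked for after bases like those of transfer RNA (tRNA) genes were noticed. tRNA genes carry promoter elements inside the gene, of which box B includes the letters GTTCGA. Those letters, the commonest run of 6 in tRNA gene bodies, were in 442 of 612 tRNA genes. They stood within 100 bp upstream of 13 hosted snoRNA genes, on the gene strand, against 1.55% of all nuclear genes, and on the opposite strand at 3, against 1.57%. Of the 166 other snoRNA genes 11 had GTTCGA there on the gene strand, so the letters are not particular to hosted genes. None of the 13 hosted genes had the promoter pattern. The 100 bases upstream of the 3 with the highest signals are shown with GTTCGA in capitals, chosen after the values were seen.
C51F7.3, chrV:12303608-12303707, plus strand: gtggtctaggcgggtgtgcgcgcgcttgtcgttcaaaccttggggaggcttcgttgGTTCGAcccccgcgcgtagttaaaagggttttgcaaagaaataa
Y43F8C.22, chrV:19643188-19643287, minus strand: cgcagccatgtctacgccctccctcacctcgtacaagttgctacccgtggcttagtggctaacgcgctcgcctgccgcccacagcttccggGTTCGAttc
T24H7.6, chrII:6248617-6248716, plus strand: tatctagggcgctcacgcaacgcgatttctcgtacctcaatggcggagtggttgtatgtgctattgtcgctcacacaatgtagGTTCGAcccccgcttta

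Of the 13 genes with GTTCGA upstream, 10 had a pooled candidate region, 2 of them strong and 8 weaker, and 3 had none. Their signals ran from 17.1 to 94.97 with a median of 28.7, all below the lowest of the 10 strongest genes. Of the 155 hosted genes with neither kind of sequence 42 had a candidate, or 27.1% (20.7 to 34.6%), against 34.1% of all nuclear genes. At none of the 10 was a tRNA gene, or a pseudogene with a tRNA-type name, annotated within 200 bp of the summit. For C51F7.3 the printed bases overlap the annotated body of C51F7.4, so that the letters lie within a gene listed as a snoRNA. Of the 49 weaker candidates 3 had such a pseudogene or tRNA gene at the summit, and these had no GTTCGA: D1046.6, T08B2.13 and F19H8.6 in mltn-9, the last named after its values were seen.

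The strong hosted genes by upstream sequence were therefore 10 with the promoter pattern, 2 with GTTCGA and 3 with neither, C51F7.4, F39B2.14 and F38E11.14. These are counts of genes: C51F7.4 shares its region with C51F7.3, which is counted under GTTCGA. Of the 49 weaker ones 2 had the pattern, 8 had GTTCGA and 39 had neither. Of the 116 with no pooled region, 3 had GTTCGA and 113 had neither.

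The protein genes of the pathway were read at their transcript starts. The list held 16 genes, for the proteins of box C/D particles (fib-1, nol-56, nol-58 and snu-13), those of box H/ACA particles (such as dkc-1 and garr-1), subunits of SNAPc and the TATA-binding protein gene tbp-1. None of the 16 had a strong region, and 3 had a weaker candidate: snpc-3.4 at 22.7, snpc-4 at 17.4 and nol-58 at 8.09. Measured from the gene body instead, 2.43% of all nuclear genes had a strong region and 34.1% any candidate. With 16 genes these counts do not set the list apart.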

How the data were processed

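Per the labels, the authors deposited lists of peaks and background regions made as input for IDR (irreproducible discovery rate), and lists of peaks past their threshold, on ce10 and ce11. Each region's signal value and the distance of its summit from the region start were used as deposited by the authors. The sources used here give no aligner, peak caller or read depth, so precision is given on counts of genes. Gene positions and sequence came from RefSeq WBcel235, the assembly that ce11 names. The ce10 lists gave only the number of thresholded peaks, 1099, and no position.

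Assignment of regions, Wilson intervals, two-sided Fisher's exact tests (p-values adjusted by Benjamini and Hochberg's method over 4 comparisons), and permutation tests with 100000 resamples were run in Python 3.11.15 with SciPy 1.17.1, and tested on simulated data. With 1 group, conditions were not compared. The genes, lists and tests were chosen with earlier results of these data known. Genes were named by rank of pooled signal: the 25 strongest the 3 on either side of the limit and any that share a host with one of the 10 strongest. Y73B6A.14 and the genes in nol-56, rpl-6 and top-2 fall outside that rule and were named after their values were seen. The longer pattern, GTTCGA, the box D count and the 100 bp limit came after the data were seen. A cut at 9 letters and a looser box C/D rule were also looked at and not kept. Alternatives were the distance, the number of strong regions, each replicate alone, 1 count per host, intronic genes alone and the thresholded ce11 list.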

Additional observations from a re-analysis of the deposited data

How the results depend on the processing

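The comparisons of shares kept their direction under each alternative. With 2 times as many regions called strong, 15.0% of hosted snoRNA genes had one, and without the genes that matched the pattern, an alternative chosen after seeing the data, 2.98%. The thresholded ce11 list covers 1 chromosome and thus fewer genes: the hosted share was 13.89%, and the differences were −9.80 percentage points from the other snoRNA genes (Fisher's exact test, adjusted p = 0.503), −11.1 from those in opposite-strand genes (exact, adjusted p = 0.593) and −26.1 from hosted snRNA genes (exact, adjusted p = 0.5), none past the threshold. With 1 replicate left out, C/D-like minus H/ACA-like ran from 11.2 to 29.7 points and passed only without replicate 2 (exact, adjusted p = 0.0448). The cause was not tested.

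The distances to host exons, which passed under no alternative, changed sign in 5 cases. The downstream difference was −13.5 bp with summits within 500 bp, −14.0 with 2 times as many regions, −29.0 with 1 count per host and −73.0 with the thresholded list, where the upstream difference was −11.5. No paired analysis was possible because there was only 1 group. Read depth is unknown, so a gene without a region cannot be called unbound.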
